A study of Arabidopsis thaliana with 24 samples.

Results

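Late embryogenesis abundant (LEA) protein genes were followed across all 8 groups of the study: LEA7 (AT1G52690) and 9 relatives outside the dehydrins, taken by locus from the 34218 features of the count table. The other members were AT3G15670, AT3G17520, AT5G44310, AT4G36600, LEA4-5 (AT5G06760), LEA18 (AT2G35300), LEA4-1 (AT1G32560), AT3G02480 and AT5G66780. All 10 were found in the table and in the RefSeq annotation, which calls each of them a late embryogenesis abundant protein, and 8 of the 10 passed the filter on low counts. LEA4-1 and AT5G44310 did not pass, so they are given by their counts. The members were chosen by their annotation and by the rise of LEA7 and its relatives after abscisic acid (ABA) in these same counts, so that rise is given as a description and no test of it is read as a result. What was tested is how the members differed between lines. The choice was made with earlier results of these data known, and this contrast uses the same ABA libraries. It is therefore not independent of the choice.

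The study asked how ABA changes the root transcriptome when ABA signalling is blocked in selected cells. All plants were F1 Arabidopsis thaliana seedlings that carried a UAS::abi1-1 transgene, a dominant form of the phosphatase ABI1 that blocks ABA signalling where a driver line switches it on. The crosses were UAS::abi1-1xC24, which brings no driver and is the control, UAS::abi1-1xJ0571, UAS::abi1-1xJ1721 and UAS:abi1-1xQ0990, and each is named below by its second parent. Roots of about 1 cm from seedlings 5 days old were collected after 8 h on 1 µM ABA or on mock plates, with 50 to 100 seedlings pooled per library and 3 libraries in each of the 8 groups. The control therefore carries the transgene too, and the labels name no cell type for any driver. Whether the pools of a group were sown separately is not stated, so each p-value reflects variation among pools that may be technical.

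LEA proteins are small, very hydrophilic and largely unfolded in water. They build up in maturing seeds and in tissues that lose water, where they are thought to shield membranes and other proteins during drying. Many of their genes are switched on by ABA: receptors that bind the hormone hold back phosphatases such as ABI1, SnRK2 kinases are released, and bZIP factors of the ABF and ABI5 group bind ABA-responsive elements (ABREs) in the promoters. The abi1-1 protein escapes the receptors and so keeps the kinases off.

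The 250 bases before the annotated start of each member were read from the RefSeq assembly TAIR10.1, and 4 of these windows are shown because they span the range of the ABRE matches and of the expression described below. They belong to LEA7 (chr1:19619474-19619723, plus strand), to AT4G36600 with the most matches (chr4:17263314-17263563, plus strand), to AT5G44310, which had almost no counts (chr5:17849537-17849786, minus strand), and to AT5G66780 with the fewest matches (chr5:26663250-26663499, plus strand). Each is written 5′ to 3′ on the strand of its gene. Capitals mark the ABRE core ACGTG or its reverse complement CACGT.
LEA7: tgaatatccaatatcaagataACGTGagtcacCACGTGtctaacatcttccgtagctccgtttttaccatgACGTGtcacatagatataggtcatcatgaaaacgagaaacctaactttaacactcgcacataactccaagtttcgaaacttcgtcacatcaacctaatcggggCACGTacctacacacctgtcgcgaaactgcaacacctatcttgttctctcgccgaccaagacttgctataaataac
AT4G36600: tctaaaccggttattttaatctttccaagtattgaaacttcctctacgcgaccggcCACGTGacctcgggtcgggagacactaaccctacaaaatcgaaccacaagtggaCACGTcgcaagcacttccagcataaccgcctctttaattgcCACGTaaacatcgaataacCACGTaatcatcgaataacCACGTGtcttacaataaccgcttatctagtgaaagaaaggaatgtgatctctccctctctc
AT5G44310: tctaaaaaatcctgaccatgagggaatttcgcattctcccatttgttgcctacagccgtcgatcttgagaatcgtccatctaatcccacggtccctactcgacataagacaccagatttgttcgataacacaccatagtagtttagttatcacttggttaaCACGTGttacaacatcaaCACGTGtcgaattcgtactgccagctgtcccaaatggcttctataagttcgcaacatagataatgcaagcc
AT5G66780: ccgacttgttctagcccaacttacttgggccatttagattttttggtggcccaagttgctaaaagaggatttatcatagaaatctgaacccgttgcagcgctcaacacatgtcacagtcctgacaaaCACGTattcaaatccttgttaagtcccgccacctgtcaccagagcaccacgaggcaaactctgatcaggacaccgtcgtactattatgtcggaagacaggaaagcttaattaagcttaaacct
The core was searched on both strands, and a CACGTG, which reads the same on either strand, was counted on each. All 10 members held at least 1 match, and 9 of the 10 held 2 or more. Of 27443 windows of the same length, each before the annotated start of a protein-coding gene, 22.9% held a match and 8.84% held 2 or more. LEA7 had 5 matches, AT4G36600 had 7, AT5G44310 had 4 and AT5G66780 had 1. The longer form ACGTGNC, which overlaps the core, was found in 8 of 10 members and in 8.57% of all windows. The dehydration-responsive element core CCGAC was found in 9 of 10 members against 12% of windows, with AT5G44310 as the exception. The seed-type RY element CATGCA was found in LEA18 and LEA4-1, or 2 of 10, against 8.43% of windows. These are matches of letters in windows and show no binding; the genome build used for the deposited counts is not given in the sources used here.

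**Figure D1:**
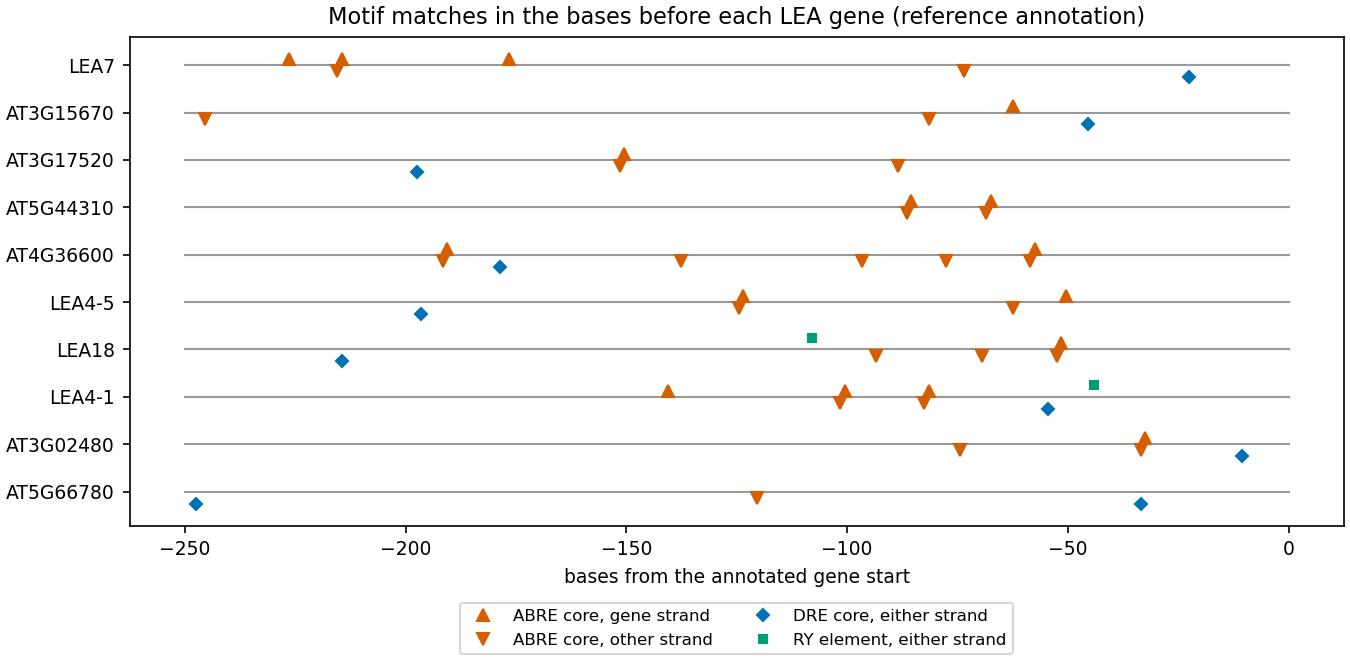
Motif matches in the 250 bases before each of the 10 LEA genes, plotted by distance in bases from the annotated start (upward triangles, ABRE core on the gene strand; downward triangles, ABRE core on the other strand; diamonds, CCGAC; squares, CATGCA). AT4G36600 holds 7 ABRE core matches and AT5G66780 holds 1.

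The genes are spread over all 5 chromosomes and differ in size. LEA7 lies at chr1:19619724-19621534 on the plus strand, with 2 coding exons and 169 codons, and the members run from 68 codons in AT3G02480 to 359 in AT4G36600. The closest in coding sequence to LEA7 was AT3G15670, with 59.9% identical aligned bases, and the longest exact run shared by any pair of members was 17 bases. That is far shorter than the reads of 150 bases. AT1G52695 overlaps LEA7 on the opposite strand and had 0 counts in all 24 libraries. Whether the counting used strand is not given, so reads from the overlap cannot be assigned to a strand.

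Between 38542817 and 61555387 reads were counted per library. Levels are CPM, counts scaled to a common normalized library size, and are given as mean ± SD over n = 3 libraries. All 6 root marker genes were present in every group. Their summed levels were 15048 to 18938 CPM in the mock libraries and lower, at 10264 to 13667 CPM, in the ABA libraries. A sum is weighted toward abundant genes and does not describe each of the 6. By gene, 2 were called higher and 2 lower with ABA in C24, 0 and 1 in J0571, 2 and 1 in J1721 and 1 and 1 in Q0990. The median log2 change of the 6 was -0.06, 0.002, 0.004 and 0.02 in that order. The 6 green shoot genes summed to 13.4 to 52.0 CPM. The 10 seed storage and oil body genes, which mark the seed tissue in which LEA genes are best known, summed to at most 1.16 CPM in any library, with 2 to 5 of the 10 having any count in a group. ABI1 lay between 97.7 CPM (C24) and 115 CPM (J0571) in mock roots, and the counts do not separate the transgene from the native gene.

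LEA7 was nearly silent in mock roots and, per length of exon, the most abundant member in every line after ABA. In C24 its 3 mock libraries held 0.0251, 0.351 and 0.277 CPM, and its ABA libraries held 932, 880 and 821 CPM. In J0571 the mock libraries held 0.457, 0.179 and 0.404 CPM, against 326, 408 and 430 CPM with ABA. Every ABA library lay far above every mock library, and the 3 J0571 libraries were the lowest of the 12 with ABA. In J1721 the mock values were 0.167, 0.106 and 0.222 CPM and the ABA values 687, 986 and 876 CPM. In Q0990 they were 0.375, 0.243 and 0.507 CPM and 914, 693 and 835 CPM. J1721 and Q0990 overlapped C24 with ABA, and in mock every J1721 library lay below every Q0990 library while the other pairs of lines overlapped. The ABA change of LEA7 on the log2 scale was 11.90 ± 0.43 (SE of the fit) in C24, 10.14 ± 0.35 in J0571, 12.29 ± 0.48 in J1721 and 11.09 ± 0.35 in Q0990. These rest on 24 to 50 mock counts per group of 3 libraries, and C24 mock library 1 held 1 of the 30 in its group.

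**Figure D2:**
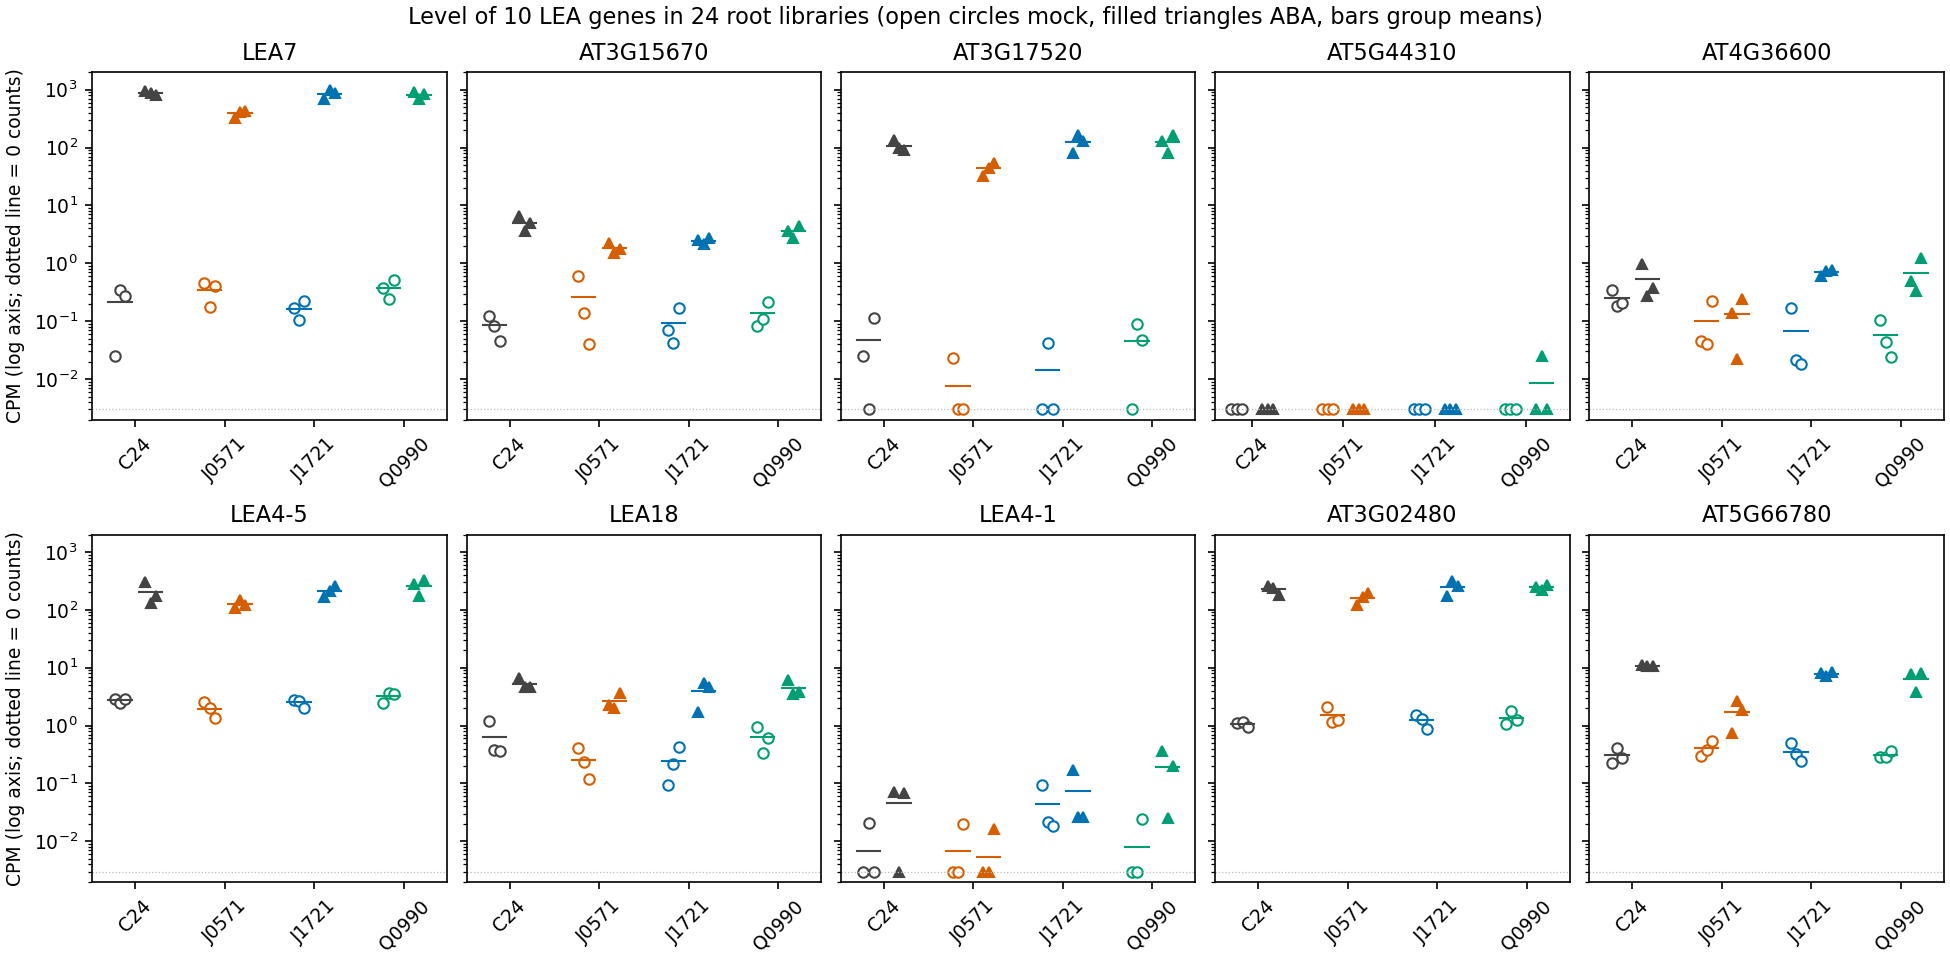
CPM of each of the 10 LEA genes in all 24 libraries (log axis; open circles mock, filled triangles ABA, horizontal bars group means; points on the dotted line have 0 counts). LEA7 goes from under 1 CPM in mock to 326 to 986 CPM with ABA. The J0571 triangles lie lowest for LEA7, AT3G17520 and AT5G66780, and for AT4G36600, which has few counts.

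The members differed widely in their level with ABA. Compared per length of exon, LEA7 was highest in C24 at 971 CPM per kb, followed by AT3G02480 at 409, LEA4-5 at 226 and AT3G17520 at 84.7 CPM per kb. A middle range held AT5G66780 at 12.9, LEA18 at 8.35 and AT3G15670 at 4.92 CPM per kb. AT4G36600 was at 0.390 CPM per kb, and LEA4-1 and AT5G44310 lay below that. These per-length levels have the spread of the CPM values, given for each gene below.

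AT3G17520 was as good as absent without ABA. Its mock libraries held 6 counts in C24, 1 in J0571, 2 in J1721 and 6 in Q0990, summed over 3 libraries. With ABA it reached 135, 99.3 and 89.5 CPM in C24, 32.1, 44.2 and 55.2 CPM in J0571, 79.1, 162 and 130 CPM in J1721 and 131, 79.7 and 167 CPM in Q0990. The J0571 libraries were all below those of the other 3 lines, which overlapped one another. So few mock counts give loose ratios: summed ABA counts over summed mock counts, per normalized depth, were 2359 in C24 (95% counting interval 1083 to 6429), 6485 in J0571 (1163 to 256167), 8354 in J1721 (2312 to 68991) and 2905 in Q0990 (1335 to 7918). These intervals come from the exact binomial interval of the split of counts and cover counting error only. They overlap, so the order of the ratios cannot be read.

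AT3G02480 and LEA4-5 had the highest mean levels of the members in mock roots. AT3G02480, which encodes the shortest protein of the group, lay at 0.868 to 2.12 CPM in the 12 mock libraries. With ABA it reached 225 ± 36.9 CPM in C24, 159 ± 36.8 in J0571, 251 ± 70.5 in J1721 and 248 ± 24.3 in Q0990. LEA4-5, a group 4 LEA gene, lay at 1.35 to 3.69 CPM in mock. Its ABA libraries held 304, 133 and 175 CPM in C24, 109, 146 and 122 in J0571, 169, 213 and 260 in J1721 and 278, 172 and 322 in Q0990. C24 ABA library 1 was the highest of its group by a wide gap, and the J0571 range overlapped that of C24. Ratios of ABA to mock were 210, 110, 198 and 183 for AT3G02480 and 74.1, 64.8, 83.4 and 82.4 for LEA4-5, in C24, J0571, J1721 and Q0990 in that order.

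AT5G66780 had the lowest level in J0571 relative to C24 among the members tested. Its mock libraries held 0.226 to 0.545 CPM in all 4 lines. With ABA, C24 held 11.0, 10.7 and 10.9 CPM, J1721 held 8.15, 7.26 and 8.40, Q0990 held 7.63, 3.86 and 8.01, and J0571 held 0.741, 2.65 and 1.83. The C24 libraries were above all others and the J0571 libraries below all others. The ratio of ABA to mock was 34.9 in C24 (95% counting interval 25.6 to 48.8), 4.28 in J0571 (3.22 to 5.78), 23.3 in J1721 (17.5 to 31.7) and 21.4 in Q0990 (15.7 to 29.9).

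LEA18, which belongs to group 4 as LEA4-5 does, and AT3G15670 reached a few CPM with ABA. LEA18 went from 0.640 ± 0.467 to 5.29 ± 1.14 CPM in C24, from 0.257 ± 0.146 to 2.62 ± 0.876 in J0571, from 0.244 ± 0.167 to 3.98 ± 2.01 in J1721 and from 0.631 ± 0.314 to 4.48 ± 1.41 in Q0990. AT3G15670 reached 6.58, 3.61 and 4.88 CPM in C24, 2.27, 1.53 and 1.79 in J0571, 2.49, 2.17 and 2.76 in J1721 and 3.62, 2.73 and 4.47 in Q0990. For AT3G15670 all libraries of J0571 and of J1721 lay below all of C24. Its mock level was 0.0404 to 0.217 CPM in 11 of the 12 mock libraries and 0.594 CPM in J0571 mock library 1, which held 26 of the 35 mock counts of that group.

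AT4G36600 stayed under 1.25 CPM in every library. It went from 32 to 69 counts in C24, from 15 to 22 in J0571, from 9 to 93 in J1721 and from 8 to 98 in Q0990, summed over 3 libraries in mock and ABA. C24 ABA library 1 held 41 of the 69, and Q0990 ABA library 3 held 63 of the 98. The ratio of ABA to mock was 1.41 in J0571 (95% counting interval 0.698 to 2.92), so no rise was detectable there at this depth. LEA4-1 held 1 mock and 6 ABA counts in C24, 1 and 1 in J0571, 6 and 12 in J1721 and 1 and 27 in Q0990. J1721 ABA library 1 held 10 of the 12. The LEA4-1 ratio was 27.1 in Q0990 (4.46 to 1109), 6.04 in C24 (0.733 to 278) and 2.11 in J1721 (0.733 to 6.85). AT5G44310 had 1 count in all 24 libraries together, in a Q0990 ABA library, and 0 counts in each other group allow at most 0.0201 to 0.0229 CPM (3 counts over the group).

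**Figure D3:**
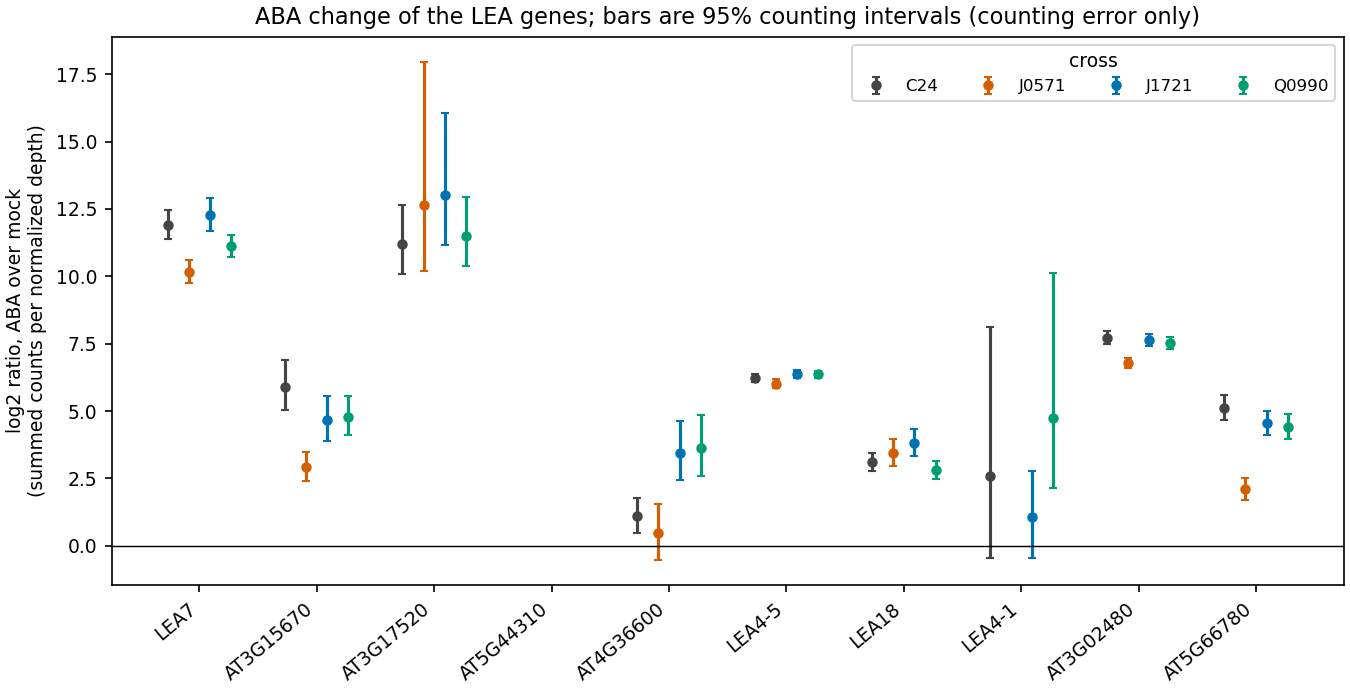
Log2 ratio of summed ABA to summed mock counts per normalized depth for each LEA gene and line, with 95% counting intervals. The ratios range from 1.41 (AT4G36600 in J0571) to 8354 (AT3G17520 in J1721), with intervals that widen where mock counts are few; AT5G44310, and LEA4-1 in J0571, have no ratio.

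Of the 8 members tested, 7 were called higher with ABA in C24 and in J0571 and 8 in J1721 and in Q0990, and AT4G36600 was the one not called in the first 2 lines. Of all 21315 genes tested, 18.6% were called higher in C24, 14.4% in J0571, 15.8% in J1721 and 17% in Q0990. Since the members were chosen for this rise, nothing is read from these calls. Over the 8 tested members the median log2 change was 6.04 in C24, 4.69 in J0571, 5.53 in J1721 and 5.52 in Q0990, against -0.02, 0.01, -0.01 and -0.01 over all genes.

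With ABA, LEA7 and 3 other members were lower in J0571 than in C24. LEA7 reached 44.2% of its C24 level, a log2 difference of -1.18 ± 0.15 (SE) at an adjusted p of 1.51e-05. Unless DESeq2 is named, each adjusted p here is from edgeR's quasi-likelihood fit, adjusted over all genes tested. AT5G66780 was at 16.0% of C24, a difference of -2.64 ± 0.29 (adjusted p = 2.68e-06), and AT3G17520 at 40.6%, a difference of -1.30 ± 0.24 (adjusted p = 0.00195). AT3G15670 was at 37.2%, a difference of -1.43 ± 0.36 (adjusted p = 0.0271), but this call was lost on leaving out C24 ABA library 1 or 3 or J0571 ABA library 2 or 3, where the adjusted p reached 0.132. In total 4 of the 8 tested members were called lower and 0 higher, against 1.89% of all genes called lower. Values for all 8 members lay below 0, with a median of -1.24, against 49.9% of all genes below 0 and a median of 0.00. In 6 of the 8 the libraries of both groups did not overlap, as was so for 10.8% of all genes in that direction. AT4G36600, 1 of these 6, passed the low-count filter mainly through the ABA groups of C24, J1721 and Q0990. Its place among the 8 and among the 6 was therefore partly fixed beforehand and is a description. The 4 members not called were AT3G02480 at -0.50 ± 0.18 (adjusted p = 0.136), LEA4-5 at -0.69 ± 0.23 (adjusted p = 0.0975), LEA18 at -1.002 ± 0.41 (adjusted p = 0.195) and AT4G36600 at -1.89 ± 0.75 (adjusted p = 0.161). The LEA4-5 value moved with single C24 libraries, to -0.29 without ABA library 1 (adjusted p = 0.506) and to -0.93 without ABA library 2 (adjusted p = 0.0269). In whole roots, fewer cells of a type and less RNA per cell cannot be told apart. Beside this, 1 of the 6 root marker genes was called lower and 0 higher in J0571 against C24 with ABA. Their median log2 difference was -0.02. Against J1721 1 root marker gene was also called lower, and against Q0990 0. Of the 5 green shoot genes tested, 0 were called against C24. The seed marker genes summed to 0.232 to 0.750 CPM with ABA in J0571 (3 of 10 genes with counts). In C24 they summed to 0.0223 to 0.259 CPM (3 of 10). The part of these marker genes in the result was not tested.

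LEA7, AT3G17520 and AT5G66780 were also lower in J0571 than in the other driver lines with ABA. These comparisons use the J0571 libraries again. Against J1721, LEA7 differed by -1.13 ± 0.15 (adjusted p = 3.00e-05), AT3G17520 by -1.49 ± 0.24 (adjusted p = 0.00042) and AT5G66780 by -2.18 ± 0.29 (adjusted p = 4.55e-05). AT3G02480 was called as well, at -0.66 ± 0.18 (adjusted p = 0.0441), with libraries that overlapped. That call was kept in 4 of 11 alternative settings and lost, among others, without J0571 ABA library 1 or 2 or J1721 ABA library 2 or 3 (adjusted p up to 0.253). Against Q0990 the differences were -1.07 ± 0.15 for LEA7 (adjusted p = 7.8e-05), -1.52 ± 0.24 for AT3G17520 (adjusted p = 0.000424) and -1.90 ± 0.29 for AT5G66780 (adjusted p = 0.000307). LEA4-5 was called there too, at -1.03 ± 0.23 (adjusted p = 0.0121), a call kept in 7 of 11 settings and lost without J0571 ABA library 1 or 3 or Q0990 ABA library 1 or 3 (adjusted p up to 0.093). Both comparisons thus called 4 of 8 tested members lower, against 1.99% of all genes for J1721 and 1.44% for Q0990. The calls for LEA7, AT3G17520 and AT5G66780 held in 11 of 11 settings in each of the 3 comparisons of J0571. AT4G36600 had a larger difference, -2.28 ± 0.74 against J1721 and against Q0990, but was not called (adjusted p = 0.0836 and 0.094). DESeq2 called it in both (adjusted p = 0.0359 and 0.0446). Because it passed the low-count filter mainly through the ABA groups of the lines other than J0571, these values are a description.

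No member was called between C24, J1721 and Q0990 with ABA, where 1.29% of all genes were called for J1721 against C24, 0.0751% for Q0990 against C24 and 0.873% for J1721 against Q0990. For LEA7 the 95% interval of the log2 difference from C24 ran from -0.35 to 0.26 in J1721 and from -0.41 to 0.19 in Q0990. That of J1721 against Q0990 ran from -0.24 to 0.36. These intervals do not reach the LEA7 difference of J0571. AT5G66780 was at 73.0% of C24 in J1721 (log2 difference -0.45 ± 0.27, adjusted p = 0.706) and at 59.8% in Q0990 (-0.74 ± 0.27, adjusted p = 0.899), with no overlap of libraries in either case. Of all genes, 6.93% in J1721 and 4.91% in Q0990 lay below C24 without overlap. AT3G15670 was at 49.2% of C24 in J1721, a difference of -1.02 ± 0.36 (adjusted p = 0.274). Beside these 0 calls, 1 of 8 members had an unadjusted p under 0.05 in each C24 comparison and 0 in the other, beside 1915 (J1721 against C24), 1019 (Q0990 against C24) and 1325 (J1721 against Q0990) of all 21315 genes, and DESeq2 called 0 members in all 3. In the order of their LEA7 levels, C24, J1721 and Q0990 thus did not differ beyond their spread, and J0571 stood below all 3.

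**Figure D4:**
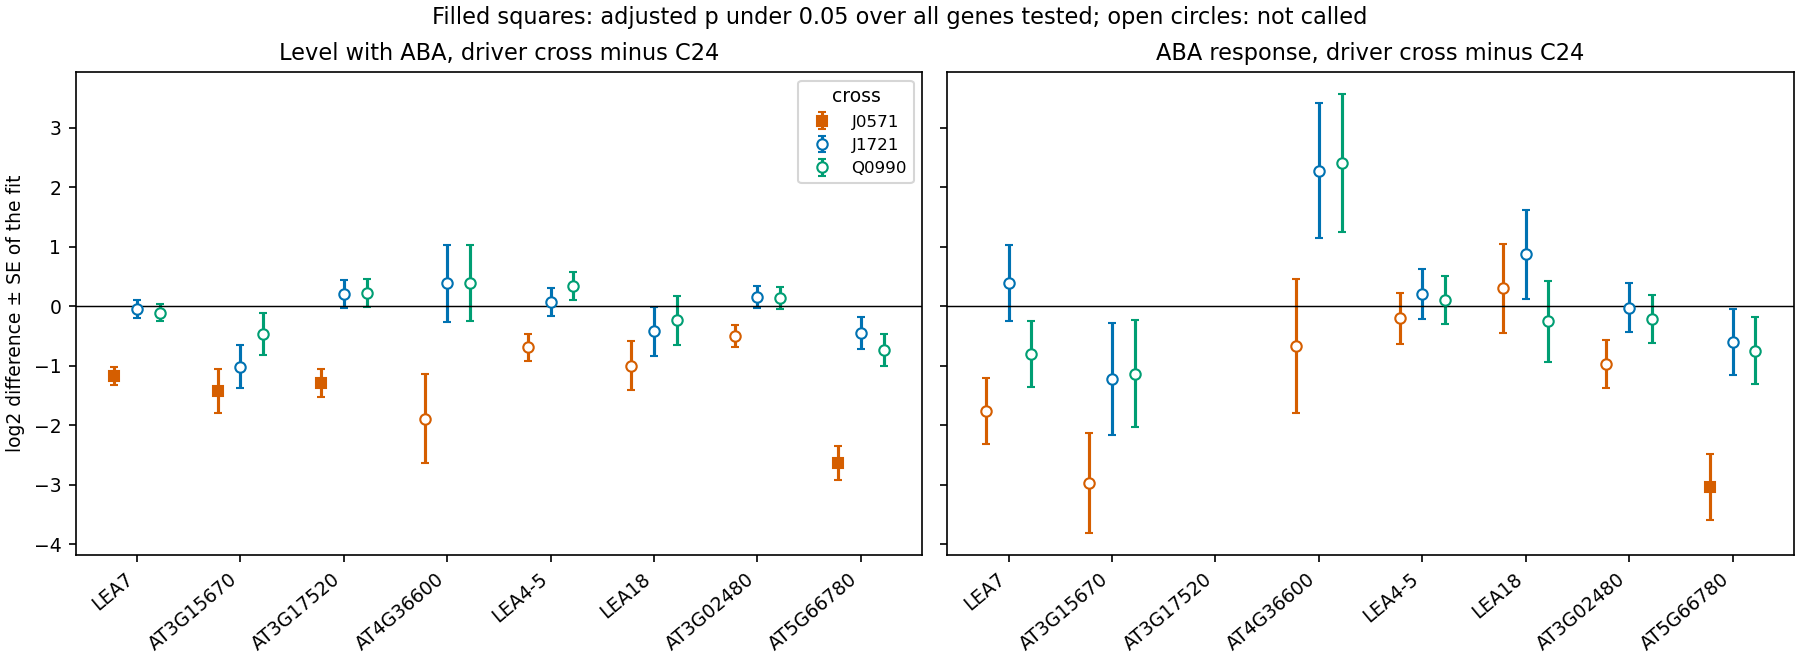
Log2 differences of the 3 driver crosses from C24, with the SE of the fit, for the 8 LEA genes tested: level with ABA on the left, ABA response (ABA minus mock) on the right; filled squares have an adjusted p under 0.05. LEA7, AT3G15670, AT3G17520 and AT5G66780 are called on the left in J0571, and AT5G66780 alone on the right; AT3G17520 is left out on the right because its mock groups hold 1 to 6 counts.

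The difference in ABA response, which sets the change from mock in a driver line against the change in C24, called 1 member. AT5G66780 rose less in J0571, with a difference of -3.04 ± 0.55 on the log2 scale (adjusted p = 0.00666), against 0.127% of all genes called lower. The call was kept in 17 of 18 alternative settings and lost without J0571 mock library 3 (adjusted p = 0.0505). LEA7 differed by -1.76 ± 0.55 (adjusted p = 0.239), AT3G15670 by -2.97 ± 0.84 (adjusted p = 0.133) and AT3G02480 by -0.97 ± 0.40 (adjusted p = 0.477). DESeq2 called LEA7 (adjusted p = 0.00871) and AT3G15670 (adjusted p = 0.00569) in that comparison, and edgeR called AT3G15670 without J0571 mock library 3 (adjusted p = 0.0202). The AT3G15670 value depended on a single library, since without J0571 mock library 1, which held most mock counts of its group, it was -1.54 (adjusted p = 0.736). LEA4-5 at -0.20 ± 0.43, LEA18 at 0.30 ± 0.75 and AT4G36600 at -0.67 ± 1.12 had values near 0 for their error. The SE of this contrast is larger than that of the ABA-treated levels because it adds the error of the mock groups, which is largest where mock counts are few. For AT3G17520, with 1 to 6 mock counts per group, no value is given.

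No member was called in the difference of J1721 or Q0990 from C24, where 0.169% and 0% of all genes were called. For LEA7 the differences were 0.39 ± 0.64 in J1721 and -0.81 ± 0.55 in Q0990, with 95% intervals from -0.94 to 1.71 and from -1.95 to 0.33. Each comparison had 1 member with an unadjusted p under 0.05, AT4G36600 in both (2.28 ± 1.13 and 2.402 ± 1.16), beside 978 and 954 of all genes, and DESeq2 called 0 members. In mock roots 0 members were called in J0571, J1721 or Q0990 against C24, with 2, 2 and 1 at an unadjusted p under 0.05 (2427, 1194 and 1117 of all genes) and 0 by DESeq2, where 0.474%, 0.0422% and 0.0469% of all genes were called. With 1 to 6 mock counts per group for AT3G17520 and 8 to 50 for LEA7, AT3G15670 and AT4G36600, a mock difference of these members was hardly detectable at this depth, so the lack of calls says little about them.

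Part of the other LEA genes outside the dehydrins rose with ABA. Of 32 such genes, 20 were tested, and 13 were called higher with ABA in C24, 10 in J0571, 11 in J1721 and 13 in Q0990, with 0 called lower in each. In the average ABA response of the 4 lines 14 of 20 were called higher, against 27.6% of all genes, and the median log2 change of the 20 was 0.99. GEA6, which encodes an Em protein of maturing seeds, rose by 4.53 ± 0.18 (adjusted p = 6.98e-17), from 0.365 ± 0.104 to 9.84 ± 3.38 CPM in C24. AT2G23110 rose by 4.38 ± 0.31 (adjusted p = 8.81e-13), from 0.0824 ± 0.0527 to 3.09 ± 0.272 CPM in C24. COR15A and COR15B, which encode cold-regulated LEA-like proteins of the chloroplast, had 0 counts in C24 mock libraries and 215 and 95 with ABA, at least 72.1-fold and 31.9-fold higher when the empty group is set to 3 counts in all. AT2G33690 went from 0 to 51 counts there, at least 17.1-fold higher, and these 3 were called higher in the average response. With 0 to 5 mock counts per group, they passed the low-count filter only through their ABA groups, so that call was nearly fixed beforehand. The list was chosen with earlier results of these data known, and its named genes by the size of this rise. Its counts and adjusted p for the rise are therefore a description and are not read as a result.

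With ABA, COR15A and COR15B were lower in J0571 than in C24. COR15A lay at 1.66 ± 1.04 CPM in C24 and 0.280 ± 0.0833 in J0571, a difference of -2.54 ± 0.58 (adjusted p = 0.0182). COR15B lay at 0.732 ± 0.369 and 0.0403 ± 0.0511 CPM, a difference of -3.94 ± 1.00 (adjusted p = 0.0196). It held 95 summed counts in C24 and 7 in J0571, and its call was kept in 6 of 9 alternatives with an adjusted p. Both genes passed the low-count filter only through ABA groups, where J0571 held the fewest counts. Their differences with ABA are therefore given as a description. Both calls were lost without C24 ABA library 1 (adjusted p = 0.111 and 0.08) and without J0571 ABA library 1 or 2, and that of COR15A also without J0571 ABA library 3. COR15A was also lower in J0571 than in Q0990, at -2.26 ± 0.58 (adjusted p = 0.0439), a call kept in 5 of 11 settings and lost without any 1 of the J0571 ABA libraries or Q0990 ABA library 1 or 3 (adjusted p up to 0.226) and with the replicate number as a block (adjusted p = 0.0694). The remaining 18 of the 20 tested genes were not called between J0571 and C24, and none of the 20 was called in a difference in ABA response from C24.

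Of 13 transcription factor genes linked to ABA and seed maturation, 7 were tested and 5 were called higher in the average ABA response, against 27.6% of all genes. This list too was chosen with earlier results of these data known, so these rises are a description. ABF2 rose by 1.27 ± 0.06 (adjusted p = 1.82e-14) and ABF3 by 0.81 ± 0.05 (adjusted p = 2.66e-13), both encoding bZIP factors that bind ABREs. ABI5, a bZIP factor of the seed and early seedling, rose by 0.46 ± 0.11 (adjusted p = 0.000937), ABF4 by 0.33 ± 0.06 (adjusted p = 5.57e-05) and ABF1 by 0.18 ± 0.06 (adjusted p = 0.014). By line, 4 of the 7 were called higher in C24, 2 in J0571, 3 in J1721 and 3 in Q0990. Of all genes, 18.6%, 14.4%, 15.8% and 17% were called higher in these lines. Summed ABA over mock counts, per normalized depth, gave ratios for ABI5 of 1.79, 1.03, 1.28 and 1.41 in that order. Those of ABF1 were 1.11, 1.03, 1.23 and 1.16. None of the 7 was called in a difference in ABA response from C24. ABI5 was the 1 factor called between lines with ABA: it lay at 5.33 ± 1.07 CPM in C24 and 3.01 ± 0.414 in J0571, a difference of -0.83 ± 0.21 (adjusted p = 0.0265) that was kept in 7 of 11 settings. The call was lost without C24 ABA library 1 or 3 or J0571 ABA library 2 or 3 (adjusted p up to 0.138).

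The genes most like LEA7 over the 12 ABA libraries were found by the root mean square difference of their centred log2 levels, among 736 genes that rose by at least 1 on the log2 scale in each line. They were TIP2;3, an aquaporin of the vacuolar membrane (0.131), LTI65, a stress marker also known as RD29B (0.144), AT3G51750 (0.1504), RAP2.6, a transcription factor of the ERF family (0.189), and AT3G20300 (0.193). The median over the 736 genes was 0.474. In J0571 these 5 genes lay at 41.3%, 43.9%, 49.2%, 57.1% and 37.1% of their C24 level, beside 44.2% for LEA7. Of the members, AT3G02480 ranked 30th and AT3G17520 32nd in likeness among the 736, LEA4-5 118th, LEA18 137th and AT3G15670 252nd, and AT5G66780 545th. The 5 genes were picked for likeness over these same 12 libraries, so J0571 levels near that of LEA7 follow from the choice. This measure describes these 12 libraries and was not tested.

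**Figure D5:**
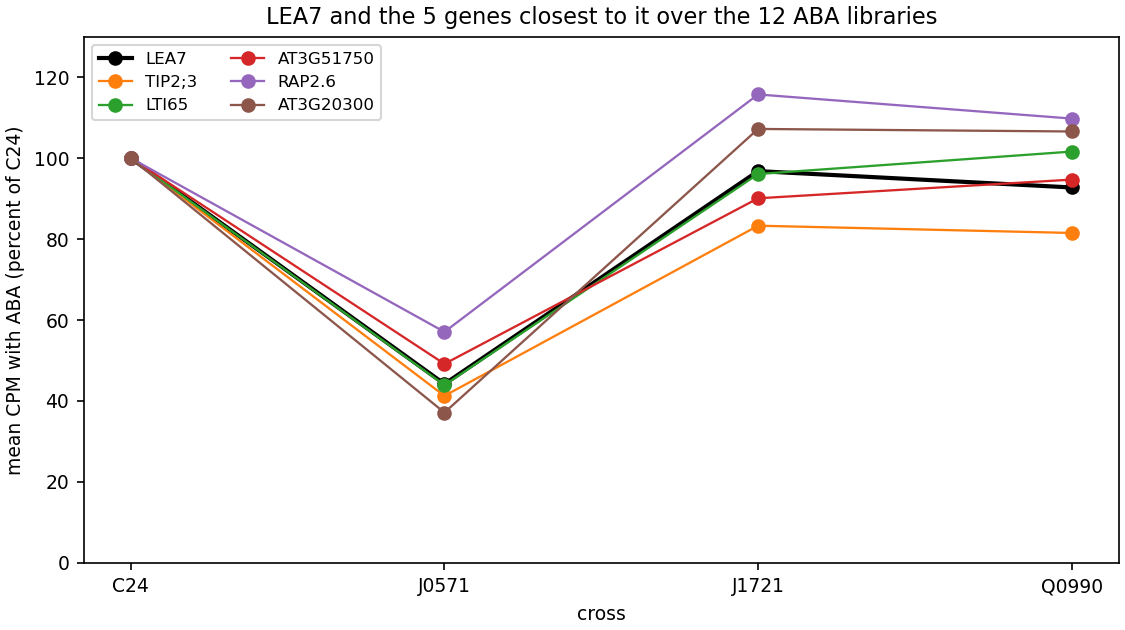
Mean CPM with ABA as a percentage of the C24 mean, by cross, for LEA7 (thick black line) and the 5 genes closest to it over the 12 ABA libraries. All 6 fall to between 37.1% and 57.1% of C24 in J0571 and lie between 81.5% and 116% in J1721 and Q0990. The 5 genes were chosen for this likeness.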

How the data were processed

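RNA of 24 root samples was sequenced as paired reads of 150 bases. The authors deposited 1 table of raw read counts by gene, made with HISAT2 and HTSeq according to the submitters' processing notes. Which versions, build, annotation and strand setting were used is not given in the sources used here. Of the 34218 features, 32548 matched a RefSeq locus of TAIR10.1, which gave gene models and upstream windows.

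Genes with low counts were removed by edgeR's filterByExpr, leaving 21315. In R 4.3.3, edgeR 4.0.16 with limma 3.58.1 gave TMM factors and a single quasi-likelihood fit to 8 group means over all libraries. Within each comparison, p-values of all genes tested went through Benjamini-Hochberg adjustment, and a gene was called under 0.05. Errors of log2 values are Wald errors of the fit. The 10 members and all gene lists were chosen with earlier results of these data known. All members are named; of each context list, the 5 called genes with the largest average ABA change are named, and the 5 genes most like LEA7. For likeness a pseudocount of 0.5 CPM was used. Replicates differed by more than counting noise (chi-square per degree of freedom 6.79 to 34.8 where a pair of libraries held 20 counts or more of a gene), so none was counted as a copy. Intervals and floors cover counting error only. The fit was tested on simulated data. Alternatives were DESeq2 1.42.0, other filters, fewer groups, a replicate block, and leaving out libraries.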

Additional observations from a re-analysis of the deposited data

Results flagged for a closer look

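In edgeR's fit over all libraries, AT5G66780 was the 1 member whose difference in ABA response between lines was called. Its log2 change was smaller in J0571 than in C24, with a difference of -3.04 (edgeR, adjusted p = 0.00666). Every J0571 library with ABA lay below every C24 library with ABA, while the mock libraries overlapped. Without J0571 mock library 3 the call was lost (adjusted p = 0.0505), and DESeq2 also called LEA7 (adjusted p = 0.00871) and AT3G15670 (adjusted p = 0.00569) in this difference.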

How the results depend on the processing

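The direction and call of LEA7, AT3G17520 and AT5G66780 in ABA-treated J0571 against each other line held in all 11 alternatives, and members called lower there numbered 3 to 5. Replicate numbers did not pair the samples: of 84 pairs with the same number, 29 had a correlation of deviations over 0.1 (range -0.465 to 0.395), and 8 of 24 libraries were closest to their own number. With the replicate block the difference in ABA response of J0571 called 71 genes (86 without), AT3G02480 in J0571 against J1721 was no longer called (adjusted p = 0.0576), nor was COR15A in J0571 against Q0990 (adjusted p = 0.0694), and AT4G36600 in J0571 against J1721 was called (adjusted p = 0.0446).

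Counts of all genes moved by over 1.5 times in several settings. DESeq2 called 194, 67 and 2 genes in the difference in ABA response of J0571, J1721 and Q0990 from C24 (members lower 3 in J0571), 280, 52 and 17 in the mock differences, 415 and 27 with ABA in J1721 and Q0990 against C24, and 979 in J0571 against Q0990. Without a filter the Q0990 response difference called 1 gene. With only the groups compared, 15 genes were called in the J1721 response difference, 39 in mock J0571, 497 in J0571 against J1721 and 97 in J1721 against Q0990. Without mock library 1 of all lines, 57 and 10 genes were called in the J0571 and J1721 response differences, and 22 and 5 in mock. The cause was not tested.

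Leaving out 1 library gave 57 to 90, 8 to 34 and 0 to 1 genes in the response differences of J0571, J1721 and Q0990, and 26 to 77, 5 to 9 and 6 to 17 in mock. With ABA it gave 471 to 749 (J0571 against C24), 486 to 753 (against J1721), 329 to 722 (against Q0990), 177 to 276 (J1721 against C24) and 102 to 187 (J1721 against Q0990). Single values that changed sign were uncalled in every setting. In the J0571 response difference they were AT3G17520 (-0.76 to 2.85), AT4G36600 (-1.47 to 0.56), LEA18 (-0.45 to 0.77) and LEA4-5 (-0.44 to 0.20). The others were the AT4G36600 change in J0571 (-0.37 to 1.67) and LEA7 in J1721 against C24 (-0.17 to 0.085), against Q0990 (-0.059 to 0.19) and in its response difference (-0.15 to 0.86).

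Depth limits the mock side: 8 of the 10 members held at most 86 mock counts in any group. No ratio of a member rested on the floor of 3 counts, since AT5G44310, the member with empty groups, was given none. On raw library totals the same 36 of 80 member levels were at 1 CPM or more.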
